A study of Mus musculus with 4 samples.

Results

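A set of 10 genes that encode proteins of neutrophil granules was followed in the blood of control and naringenin-treated mice. They were chosen by gene symbol and by granule class, and all 10 were among the 17823 genes with values, of 23136 listed. Mpo, Elane, Prtn3 and Ctsg stood for primary granules, Ltf, Camp, Ngp and Lcn2 for secondary granules, and Mmp8 and Mmp9 for tertiary granules. Naringenin (Nar), a flavonoid, was injected into the tail vein of C57BL/6 mice, called aging mice in the study and adult in the sample labels. Treatment lasted 30 days, and control (Ctrl) mice received phosphate-buffered saline. Messenger RNA from whole blood was sequenced in 2 Ctrl and 2 Nar libraries, numbered 1 and 3 in each group. Values are FPKM, fragments per kilobase of transcript scaled to the mapped fragments of the library, so levels of different genes can be compared. The labels do not say that libraries came from separate mice, and p-values then measure only the spread between these libraries.

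Neutrophils carry antimicrobial and matrix-degrading proteins in granules that are filled in sequence while the cells mature in the bone marrow. Primary (azurophil) proteins are made in promyelocytes, secondary (specific) proteins in myelocytes and metamyelocytes, and tertiary (gelatinase) proteins in band cells. Circulating neutrophils keep the proteins after most of these transcripts have declined, the primary ones first.

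The genes lie in a few places of the genome (GRCm38.p6 annotation of RefSeq). Prtn3 (chr10:79879667-79883174) and Elane (chr10:79886312-79888216) are neighbours, 3137 bases apart with 0 protein-coding genes between them. Camp (chr9:109847377-109849456), Ngp (chr9:110419808-110423012) and Ltf (chr9:111019292-111042766) follow each other on chromosome 9, with 8 protein-coding genes between Camp and Ngp and 20 between Ngp and Ltf. Mmp8 (chr9:7558429-7568486) lies far from them on the same chromosome. Lcn2 (chr2:32384637-32387739) and Mmp9 (chr2:164940326-164955850) share chromosome 2, also far apart. Mpo (chr11:87793784-87804412) and Ctsg (chr14:56099885-56102574) stand alone.

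The sequence before the start site was read for 9 of the 10 genes from RefSeq, 250 bases each. Those of all 4 secondary genes and Mmp8 are shown because these genes moved together, with or without a motif match, and those of the primary genes Prtn3, Elane and Ctsg for comparison. That of Mpo is not shown. The letters TTGNNNAA, a loose core of C/EBP sites, and GAGGAAGT, a core of PU.1 sites, were searched on both strands. C/EBP factors and PU.1 drive granulocyte development. These letters were chosen after the sequences had been seen, and the 2 motifs do not overlap in any of the sequences. Capitals mark the matches. The secondary genes Camp (chr9:109849457-109849706, minus strand), Ngp (chr9:110419558-110419807, plus strand), Ltf (chr9:111019042-111019291, plus strand) and Lcn2 (chr2:32387740-32387989, minus strand) and the tertiary gene Mmp8 (chr9:7558179-7558428, plus strand) read as follows, 5′ to 3′.
Ngp: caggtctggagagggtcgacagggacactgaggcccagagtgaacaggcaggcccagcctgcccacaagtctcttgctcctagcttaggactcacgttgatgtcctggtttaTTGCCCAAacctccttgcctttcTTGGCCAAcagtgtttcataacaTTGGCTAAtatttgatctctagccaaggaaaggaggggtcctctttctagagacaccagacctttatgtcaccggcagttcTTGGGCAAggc
Ltf: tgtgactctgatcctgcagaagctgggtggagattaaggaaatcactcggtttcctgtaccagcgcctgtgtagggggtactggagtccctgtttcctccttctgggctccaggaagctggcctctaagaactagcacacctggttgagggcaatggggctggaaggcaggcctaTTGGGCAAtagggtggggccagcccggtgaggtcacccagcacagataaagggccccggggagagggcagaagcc
Camp: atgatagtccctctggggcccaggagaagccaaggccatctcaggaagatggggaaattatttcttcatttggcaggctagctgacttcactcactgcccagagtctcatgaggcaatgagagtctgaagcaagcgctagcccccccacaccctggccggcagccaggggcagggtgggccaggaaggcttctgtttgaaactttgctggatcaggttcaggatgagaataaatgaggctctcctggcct
Lcn2: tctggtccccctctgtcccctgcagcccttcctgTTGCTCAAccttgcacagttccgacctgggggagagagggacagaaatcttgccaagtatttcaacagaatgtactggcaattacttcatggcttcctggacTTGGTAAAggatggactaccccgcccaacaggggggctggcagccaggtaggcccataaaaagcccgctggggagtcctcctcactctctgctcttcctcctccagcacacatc
Mmp8: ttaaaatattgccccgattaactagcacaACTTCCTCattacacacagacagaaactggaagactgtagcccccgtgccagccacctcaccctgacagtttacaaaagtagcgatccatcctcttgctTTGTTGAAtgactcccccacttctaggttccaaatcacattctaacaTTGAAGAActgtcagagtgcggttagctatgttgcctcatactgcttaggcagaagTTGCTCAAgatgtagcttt

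The primary genes Prtn3 (chr10:79879417-79879666, plus strand), Elane (chr10:79886062-79886311, plus strand) and Ctsg (chr14:56102575-56102824, minus strand) read as follows.
Prtn3: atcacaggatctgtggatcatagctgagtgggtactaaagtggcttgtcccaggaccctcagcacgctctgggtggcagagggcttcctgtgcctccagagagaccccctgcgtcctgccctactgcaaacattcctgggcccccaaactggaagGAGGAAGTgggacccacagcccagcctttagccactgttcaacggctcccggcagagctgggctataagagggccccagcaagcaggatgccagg
Elane: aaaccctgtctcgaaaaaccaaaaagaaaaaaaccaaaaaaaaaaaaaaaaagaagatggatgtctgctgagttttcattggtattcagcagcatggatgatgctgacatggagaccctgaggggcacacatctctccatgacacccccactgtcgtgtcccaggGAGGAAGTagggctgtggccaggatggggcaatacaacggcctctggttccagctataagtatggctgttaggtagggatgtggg
Ctsg: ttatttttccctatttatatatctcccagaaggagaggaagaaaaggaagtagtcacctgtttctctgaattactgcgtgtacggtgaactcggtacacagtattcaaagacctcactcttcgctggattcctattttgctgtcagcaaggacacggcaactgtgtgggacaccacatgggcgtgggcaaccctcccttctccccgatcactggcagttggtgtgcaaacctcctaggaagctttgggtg

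TTGNNNAA was found in 3 of 4 secondary promoters, with 4 matches in Ngp, 1 in Ltf and 2 in Lcn2, but not in that of Camp. Mmp8 held 3 matches, and 0 of 4 primary promoters held any. Among 32851 mouse promoters of this length, 33.3% had the motif, so a match is common. GAGGAAGT was found in 3 of 4 primary promoters, those of Mpo, Elane and Prtn3, in 0 of 4 secondary promoters and in Mmp8. Of all promoters, 2.44% had it, but the letters were chosen after the members' sequences had been seen, so these shares are not a test of enrichment. A match is a description of letters and not a site in use.

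Haemoglobin genes made up 95.12% and 92.59% of the summed FPKM in Ctrl 1 and 3, and 95.75% and 96.4% in Nar 1 and 3. All other genes thus share a small remainder, which was smaller in both Nar libraries than in both Ctrl libraries. The steps between low values gave a rough depth of 23000000 to 24400000 fragments per library, alike in both groups. For testing, 5339 genes averaged 0.5 FPKM or more, and their median log2 fold change with Nar was -1.07. Fold changes were taken on log2(FPKM + 0.1), a scale on which those of low genes are understated. Because the typical gene fell as well, changes of the 6 tested granule genes are also given relative to that median. This does not correct the understatement in low genes. In whole blood, fewer neutrophils and less granule transcript per neutrophil cannot be told apart.

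**Figure D1:**
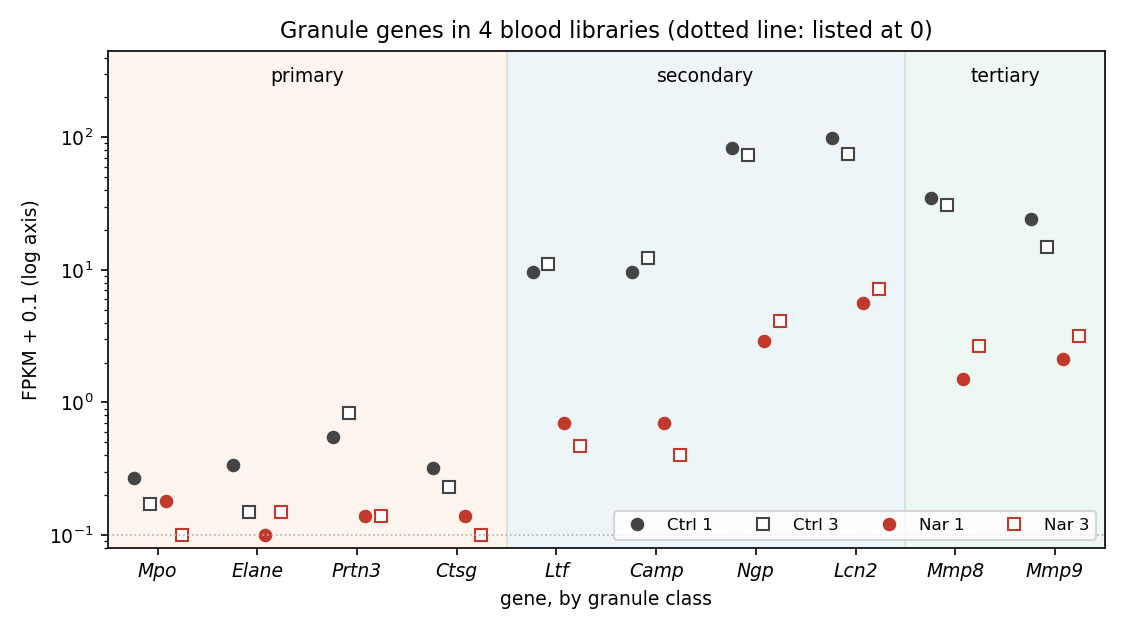
FPKM + 0.1 (log axis) of the 10 granule genes in the 4 libraries, by granule class. Circles are libraries 1 and squares libraries 3, grey for Ctrl and red for Nar, and the dotted line is a listed value of 0. All 6 secondary and tertiary genes lay lower in both Nar libraries, while the primary genes lay under 1 FPKM throughout.

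All 6 secondary and tertiary genes fell with Nar on the deposited scale, although Mmp9 turned to 0.56 with libraries scaled on neutrophil genes. Their FPKM means were 7.62 to 24.1 times higher in Ctrl than in Nar. Each passed a limma test fitted over all genes (Benjamini-Hochberg adjusted p from 0.00238 to 0.00774). Over all 5339 genes tested, 39.6% were called lower at an adjusted p under 0.05, 2113 genes, and 10 were called higher. With median-of-ratios scaling, which levels the typical gene, 19 genes were called lower and 6 higher, and 3 of the 6 granule genes (Ltf, Camp and Ngp) passed. On the deposited scale the log2 fold changes of the 6 genes, -4.49 to -2.87, compare with the median of -1.07, and 4 tested genes fell further than all 6 of them. With either Ctrl library left out, limma called 0 genes at all. All 6 still had an unadjusted p under 0.05, as had 2682 genes without Ctrl 1 and 2133 without Ctrl 3. Without Nar 1 the log2 fold changes of the 6 genes ran from -4.77 to -2.58, and without Nar 3 from -4.74 to -3.16. In both fits fewer genes passed than with all libraries, among the 6 and over all genes. A test there assumes that the lone library varies like the other group.

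Both Nar libraries lay below both Ctrl libraries for 8 of the 10 genes, including the 6 that were tested. The same held for 78.3% of all tested genes, so the order of the libraries does not set the granule genes apart.

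Among secondary granule genes, Lcn2 and Ngp were the most abundant. Ngp, neutrophilic granule protein, a relative of the cystatins and cathelicidins, had 82.49 and 73.67 FPKM in Ctrl 1 and 3 against 2.83 and 4.03 FPKM in Nar 1 and 3. The groups were far apart and the libraries within each were close. Its log2 fold change was -4.49 (SE 0.497, adjusted p by limma = 0.00247), or -3.42 once the median of all genes is subtracted, and 4 tested genes had a lower one.

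Lcn2, lipocalin 2, which withholds iron from bacteria by binding their siderophores, had 99.42 and 75.21 FPKM in Ctrl 1 and 3 against 5.49 and 7.03 FPKM in Nar 1 and 3. The mean was 87.3 ± 17.1 FPKM (SD, n = 2) in Ctrl and 6.26 ± 1.09 (SD, n = 2) with Nar. Its log2 fold change of -3.78 (SE 0.504, adjusted p by limma = 0.00427) was the smallest fall of the 4 secondary genes, and was -2.71 relative to the median of all genes.

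Ltf and Camp were lower in level than Ngp and Lcn2 and resembled each other in every library. Ltf, lactoferrin, an iron-binding protein, had 9.56 and 10.89 FPKM in Ctrl 1 and 3, and 0.6 and 0.37 FPKM in Nar 1 and 3. Camp, the cathelicidin precursor of an antimicrobial peptide, had 9.59 and 12.14 FPKM in Ctrl and 0.6 and 0.3 FPKM with Nar. For both genes Ctrl 3 was the higher control and Nar 3 the lower treated library. The log2 fold change was -4.17 for Ltf (standard error 0.403) and -4.36 for Camp (standard error 0.429), with a limma adjusted p of 0.00238 for each. Relative to the median of all genes these were -3.09 for Ltf and -3.29 for Camp. In Nar 3, Camp rested on about 5 fragments and Ltf on about 24, against 198 and 674 in Ctrl 3.

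The tertiary granule genes encode metalloproteinases that cleave collagen and gelatin. Mmp8, neutrophil collagenase, which in human neutrophils is also counted among secondary granule proteins, had 34.86 and 30.64 FPKM in Ctrl 1 and 3 against 1.4 and 2.55 FPKM in Nar 1 and 3. Its log2 fold change was -4.04 (SE 0.497, adjusted p by limma = 0.00385), within the range of the 4 secondary genes, and -2.97 relative to the median of all genes.

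Mmp9, gelatinase B, had 24.3 and 14.71 FPKM in Ctrl 1 and 3 against 2.03 and 3.09 FPKM in Nar 1 and 3. The groups did not overlap, though on the log2 scale the controls were further apart (0.72) than for the other tested members. It had the smallest fall of the 6, with a log2 fold change of -2.87 (SE 0.499, adjusted p by limma = 0.00774). It differed by -1.79 from the median of all genes, and 103 genes, or 1.93% of those tested, fell further.

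**Figure D2:**
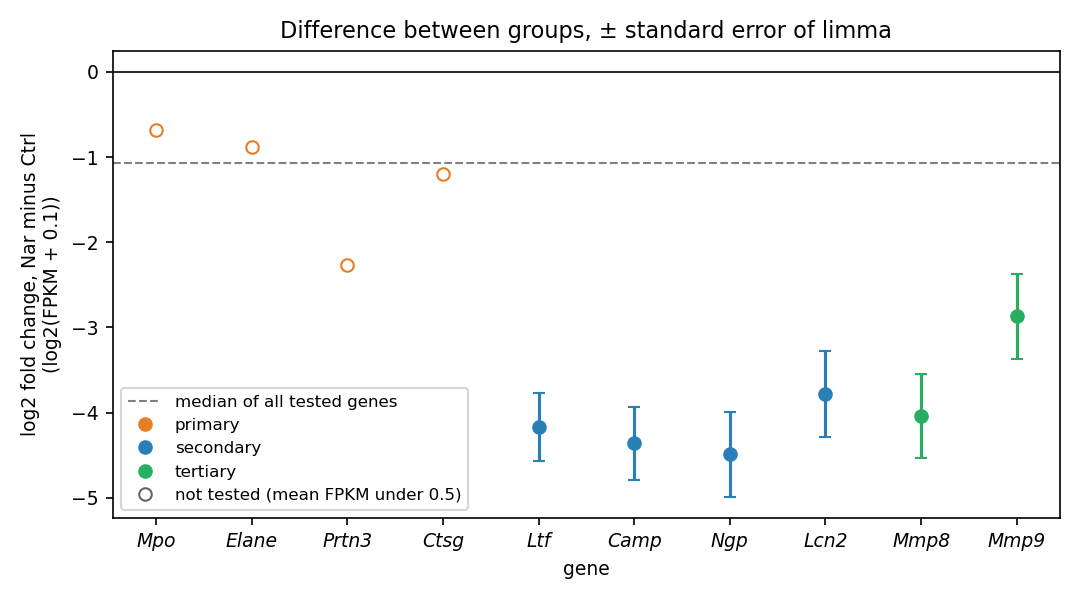
Log2 fold change, Nar minus Ctrl, of the 10 granule genes on log2(FPKM + 0.1), with bars of 1 standard error from limma for the 6 tested genes and open points for the 4 primary genes that were not tested. The 4 secondary genes and Mmp8 lie between -4.49 and -3.78, Mmp9 at -2.87 (0.56 when scaled on neutrophil genes), and the dashed line marks the median of all tested genes, -1.07.

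Primary granule genes were near the limit of detection in every library, and none of the 4 reached the mean of 0.5 FPKM needed for the test. Prtn3, proteinase 3, a serine protease, was the highest, with 0.45 FPKM in Ctrl 1, 0.73 in Ctrl 3 and 0.04 in each Nar library. These correspond to about 10 and 16 fragments in Ctrl and about 1 in each Nar library. Prtn3 was thus lower in both Nar libraries.

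Ctsg, cathepsin G, had 0.22 and 0.13 FPKM in Ctrl, 0.04 in Nar 1 and was listed at 0 in Nar 3, where 3 fragments would be 0.134 FPKM. Elane, neutrophil elastase, had 0.24 and 0.05 FPKM in Ctrl 1 and 3 against 0 and 0.05 FPKM in Nar 1 and 3. Mpo, myeloperoxidase, which makes hypochlorous acid, had 0.17 and 0.07 FPKM in Ctrl, 0.08 in Nar 1 and 0 in Nar 3. The groups of Elane and Mpo overlapped, and neither could be told apart between the groups at this depth. Apart from Prtn3, no primary gene exceeded about 11 fragments in any library.

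In order of mean level in Ctrl, the genes ran from Lcn2 and Ngp (87.3 and 78.1 FPKM) through Mmp8 (32.8), Mmp9 (19.5), Camp (10.9) and Ltf (10.2) to Prtn3 (0.59). Ctsg, Elane and Mpo followed at 0.175, 0.145 and 0.12 FPKM. Across libraries the values of Lcn2 and Ngp overlapped, as did those of Camp and Ltf, and those of Ctsg, Elane and Mpo. Within each Ctrl library Lcn2 lay above Ngp, and Camp lay above Ltf, though barely in Ctrl 1. With Nar the order was Lcn2 (6.26 FPKM), Ngp (3.43), Mmp9 (2.56), Mmp8 (1.97), Ltf (0.485) and Camp (0.45). Across libraries Mmp9 overlapped with both Ngp and Mmp8, but within each Nar library it lay below Ngp and above Mmp8. In both Ctrl libraries Mmp9 lay below Mmp8. Prtn3, at 0.04 FPKM, and the other primary genes stayed last, so the separation of the primary genes from the rest held in both groups.

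Taken as 1 pool, the 10 genes summed to 261 and 218 FPKM in Ctrl 1 and 3 and to 13.1 and 17.5 FPKM in Nar 1 and 3. Secondary genes made up 76.9% and 78.8% of the pool in Ctrl and 72.6% and 67.2% with Nar. Tertiary genes made up 22.6% and 20.8% in Ctrl and 26.2% and 32.3% with Nar. The share of Ngp went from 31.6% and 33.8% to 21.6% and 23.1%, and that of Mmp9 from 9.3% and 6.74% to 15.5% and 17.7%, while Lcn2 remained the largest part of the pool at 34.5% to 41.9%. These shares do not depend on how the libraries are scaled. The smallest two-sided p of an exact permutation test of 2 libraries against 2 is 0.33, so they are given as a description.

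**Figure D3:**
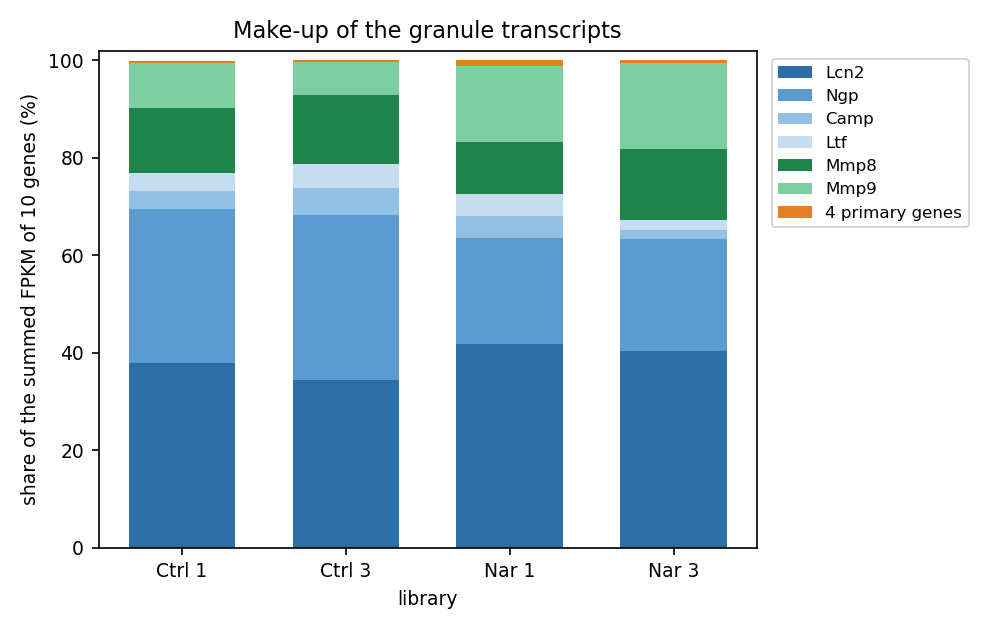
Share (%) of each granule gene in the summed FPKM of the 10 genes, for each library, with secondary genes in blue, tertiary genes in green and the 4 primary genes together in orange. Mmp9 takes 15.5% and 17.7% in the Nar libraries against 9.3% and 6.74% in the Ctrl libraries, and the primary genes take at most 1.22%.

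On the log2 scale, secondary genes minus tertiary genes, as mean levels, gave 0.02 and 0.46 in Ctrl 1 and 3 and -0.09 and -0.92 in Nar 1 and 3. The Nar mean differed from the Ctrl mean by -0.75, but Nar 1 was closer to Ctrl 1 than the controls were to each other. The difference was -0.33 without Nar 3, -0.52 without Ctrl 3, -0.97 without Ctrl 1 and -1.16 without Nar 1. It was -0.41 with a pseudocount of 1 and -0.83 with 0.01. The median log2 fold change was -4.27 for the secondary genes, -3.45 for the tertiary genes and -1.04 for the primary genes. The value of the primary genes is set by the pseudocount and was -0.18 with a pseudocount of 1 and -2.66 with 0.01.

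Genes of mature neutrophils outside the granule classes fell alongside. All 7 of S100a8, S100a9, Csf3r, Cxcr2, Il1r2, G0s2 and Retnlg were called lower, with a median log2 fold change of -3.35, where 39.6% of all tested genes were called lower. With median-of-ratios scaling limma called 0 of the 7, and 0.356% of all tested genes lower. With any single library left out, it called fewer of the 7, as it called fewer of all genes. The summed FPKM of the 7 genes was 1230 to 1480 in Ctrl and 92.5 to 148 with Nar.

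Measured against the mean log2 level of these 7 genes in the same library, the differences between the groups were smaller for the 6 tested genes. Ngp stood 0.75 and 0.91 above that level in Ctrl and 0.12 and 0.24 below it with Nar (-0.12 and -0.24). Mmp9 moved the other way, from -1.01 and -1.41 in Ctrl to -0.58 and -0.61 with Nar. Mmp8 went from -0.49 and -0.35 to -1.08 and -0.88, and Lcn2 from 1.02 and 0.94 to 0.82 and 0.55, so both stayed lower in both Nar libraries. Ltf and Camp overlapped between the groups on this scale. The 4 primary genes had differences of 1.21 (Prtn3) to 2.81 (Mpo), Nar minus Ctrl, but these rest on the pseudocount because their values were near 0. With the libraries scaled first and the pseudocount added afterwards, the difference was -0.23 for Prtn3 and 0.63 for Mpo. With libraries scaled on the 7 genes, log2 fold changes ran from -1.12 for Camp to 0.56 for Mmp9 and limma called 0 of the 6 genes, 0 of them at an unadjusted p under 0.05. Their adjusted p-values were 0.124 to 0.734 on that scale, against 1.5e-07 to 0.734 over all settings tried. On that scale 12 of the 5339 genes were called lower and 4759 higher. A difference that misses the threshold with 2 libraries a group does not show that granule and other neutrophil genes moved alike.

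**Figure D4:**
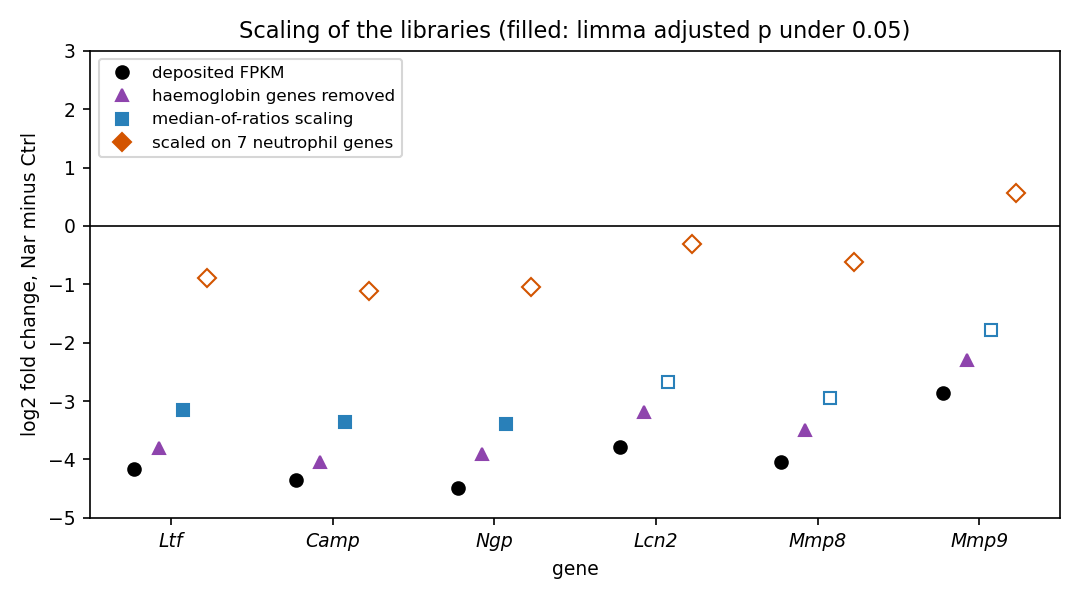
Log2 fold change, Nar minus Ctrl, of the 6 tested granule genes with the libraries scaled in 4 ways (deposited FPKM, haemoglobin genes removed, median-of-ratios, and scaled on 7 mature neutrophil genes). Filled points have a limma adjusted p under 0.05. Values run from -4.49 to -2.87 on the deposited scale and from -1.12 to 0.56 when scaled on neutrophil genes, where no point is filled and Mmp9 lies above 0.

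Other genes of the granule compartments were taken from lists, and their counts are on the deposited scale, where 39.6% of all tested genes were called lower. The counts depended on the scaling and on single libraries. With median-of-ratios scaling limma called 1 gene, of the secretory vesicles, in the 7 lists of granule-related genes, and 25 genes in all (745 at an unadjusted p under 0.05). Without Ctrl 1 or without Ctrl 3 it called 0 in every list. The lists share genes: Slpi counts among both the secondary granule genes and the inhibitors, Csf3r among both the granulocyte factors and the mature neutrophil genes, and Nkg7 among both the primary granule and the NK cell genes. Of 10 tested further secondary granule genes, 10 were called lower (median log2 fold change -2.68), and fewer without Nar 1 or without Nar 3, as over all genes. They included Lyz2, lysozyme, with 295.37 and 372.72 FPKM in Ctrl and 130.74 and 92.64 with Nar (log2 fold change -1.59, limma adjusted p = 0.0313). Chil3, a chitinase-like lectin, had 30.32 and 63.31 FPKM in Ctrl and 2.96 and 2.37 with Nar (log2 fold change -4.0, limma adjusted p = 0.00427). Several of the listed genes, Lyz2, Cybb, Cd14 and Fcgr3 among them, are also transcribed in monocytes.

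Of 8 tested further genes of primary granules and lysosomes, 3 were called lower (median -1.27), near the median of all genes. With haemoglobin genes removed, 0 were called, where 3.02% of all tested genes were called lower. The count was also smaller without Nar 1 or without Nar 3, as over all genes. The most abundant, Lamp1, a lysosomal membrane protein, had 27.9 and 51.14 FPKM in Ctrl and 16.35 and 12.39 with Nar and did not pass (limma adjusted p = 0.0621). Hexa, a subunit of beta-hexosaminidase, did not pass either (adjusted p = 0.0937). These lysosomal genes are expressed in most cells.

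Of 6 tested further tertiary genes, 4 were called lower (median -2.39). With haemoglobin genes removed, 2 were called, where 3.02% of all tested genes were called lower. The count was also smaller without Nar 1 or without Nar 3, as over all genes. The most abundant ones, Itgb2, the common beta chain of leukocyte integrins, and Hpse, heparanase, did not pass (limma adjusted p = 0.0782 and 0.0949). All 6 tested genes of secretory vesicles, the most readily released store of membrane receptors, were called lower (median -2.60). With haemoglobin genes removed, 3 were called, beside the same 3.02% of all tested genes. Fewer than 6 were also called without Nar 1 or without Nar 3. Cd14, a co-receptor for lipopolysaccharide, had 14.71 and 11.9 FPKM in Ctrl and 0.44 and 0.75 with Nar, and Fcgr3, an IgG receptor, had 11.3 and 7.28 against 1.27 and 0.98.

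Inhibitors that hold granule enzymes in check were called lower in 5 of 5 tested genes, with a median of -1.47 that was close to that of all genes. The count was 3 with the replicate block and 1 with haemoglobin genes removed, where 33.8% and 3.02% of all tested genes were called lower. It was also smaller without Nar 1 or without Nar 3, as over all genes. Slpi, an inhibitor of elastase and cathepsin G, had 14.36 and 18.26 FPKM in Ctrl and 3.59 and 2.4 with Nar (log2 fold change -2.42, limma adjusted p = 0.0114). Serpina3g, a serine protease inhibitor, had a log2 fold change of -1.30 (limma adjusted p = 0.0326). Timp1, an inhibitor of Mmp8 and Mmp9 named here after its values were seen, was listed at 0 in all 4 libraries.

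Genes of granule trafficking had 5 of 9 tested genes called lower (median -1.35). The count was 3 with the replicate block and 0 with haemoglobin genes removed, where 33.8% and 3.02% of all tested genes were called lower. It was also smaller without Nar 1 or without Nar 3, as over all genes. Srgn, the proteoglycan core on which granule proteins are packed, had 204.91 and 518.05 FPKM in Ctrl 1 and 3 against 141.11 and 117.5 FPKM in Nar 1 and 3 (limma adjusted p = 0.0717). Snap23, a SNARE protein of granule fusion, had 34.15 and 53.51 FPKM in Ctrl and 20.75 and 16.84 with Nar and did not pass (limma adjusted p = 0.0847). Both were highest in Ctrl 3, where 5 platelet genes summed to 1990 FPKM against 617 in Ctrl 1 and 403 to 510 with Nar. The part of platelets in these values was not tested.

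Of 6 tested factors of granulocyte development, 5 were called lower (median -2.82), and fewer without Nar 1 or without Nar 3, as over all genes. Csf3r, the receptor of granulocyte colony-stimulating factor, had 37.07 and 22.88 FPKM in Ctrl and 2.49 and 3.2 with Nar. Spi1, which encodes PU.1, had 18.86 and 16.22 FPKM in Ctrl and 2.28 and 2.63 with Nar (log2 fold change -2.79, limma adjusted p = 0.00609). On the deposited scale, where 10 of all 5339 tested genes were called higher, none of these was in the 7 lists. With libraries scaled on neutrophil genes, 4759 genes were called higher. On that scale limma called from 1 gene (secretory vesicles) to 8 genes (trafficking) per list.

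**Figure D5:**
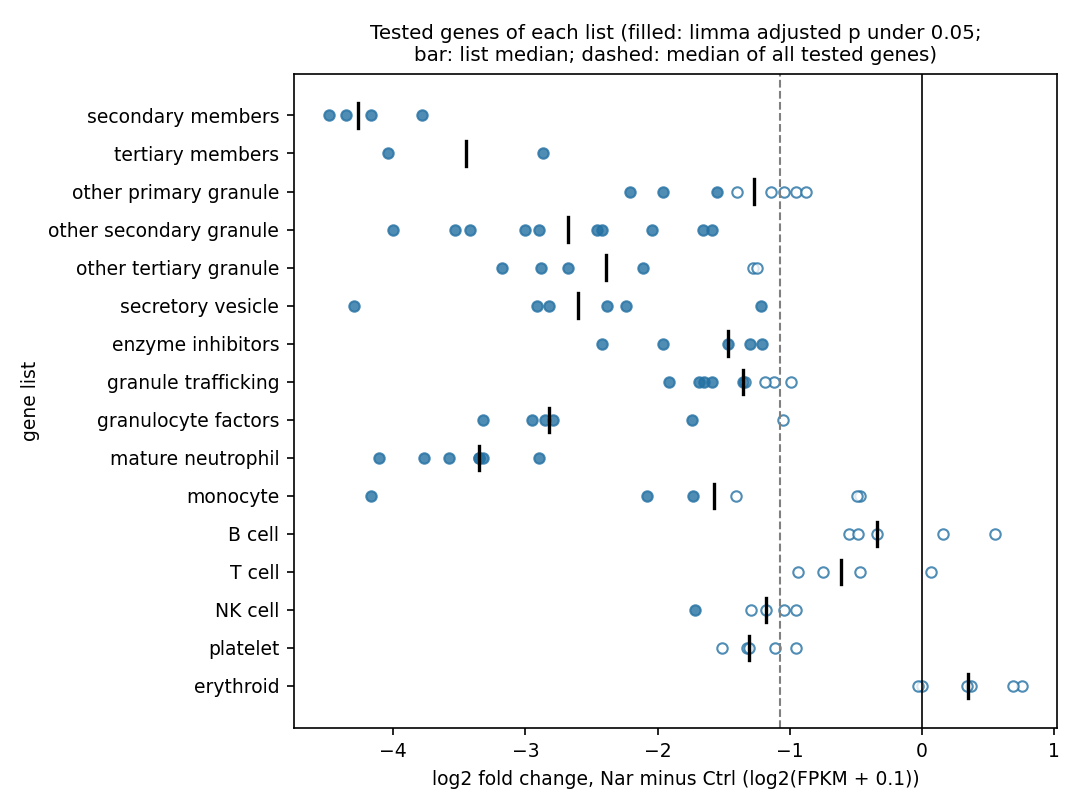
Log2 fold change, Nar minus Ctrl, of the tested genes of each list, on log2(FPKM + 0.1). Filled points have a limma adjusted p under 0.05, bars are list medians, and the dashed line is the median of all tested genes, -1.07. The medians of the secondary and tertiary members (-4.27 and -3.45) and of the mature neutrophil genes (-3.35) lie furthest left, and those of B cell and T cell genes lie to the right of the dashed line.

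Markers of other blood cells had smaller median changes, and the difference from the granule genes was not tested. Of 5 tested B cell markers and 4 tested T cell markers, 0 were called by limma, with median log2 fold changes of -0.34 and -0.61, above the median of all genes. An unadjusted p under 0.05 was reached by 0 of the B cell and 1 of the T cell markers. Of 6 tested monocyte markers, 3 were called lower (median -1.57), against 39.6% of all tested genes. The count was 1 with a pseudocount of 1 or haemoglobin genes removed, where 34.2% and 3.02% of all tested genes were called lower. It was 0 with median-of-ratios scaling (0.356% of all tested genes), and smaller with any single library left out, as over all genes. Their summed FPKM was 38.1 to 50.3 in Ctrl and 3.52 to 9.11 with Nar, most of it in Ctrl from Ly6c2 (27.2 and 30.81 FPKM in Ctrl, 2.7 and 0.83 with Nar). Without Ly6c2, which is named here after its values were seen, the other 5 summed to 23.1 and 7.29 FPKM in Ctrl and 6.41 and 2.69 FPKM with Nar. For NK cells 1 of 5 was called lower (median -1.18, 3 at an unadjusted p under 0.05). That count was 2 with TPM or the replicate block, where 42.2% and 33.8% of all tested genes were called lower. It was 0 with haemoglobin genes removed or median-of-ratios scaling, where 3.02% and 0.356% were called lower. With any single library left out it was smaller too. For platelets it was 0 of 5 (median -1.31, 1 at an unadjusted p under 0.05). The 6 erythroid markers had a median of 0.35, and limma called 0, with 0 at an unadjusted p under 0.05. How much these cell types contribute to the values of the granule genes was not tested.

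The genes most like the secondary granule genes were sought by the distance between their profiles over the 4 libraries, each centred on its own mean log2 level. The 5 closest outside the 10 genes were Asprv1, Fos, Gm5483, I830127L07Rik and Cd14, at distances of 0.412, 0.422, 0.531, 0.584 and 0.603 log2 units. The secondary genes themselves lay at 0.343 (Ltf), 0.541 (Ngp), 0.56 (Camp) and 0.61 (Lcn2) from their common profile, which is their own mean and so lies close to them by construction. Mmp8 lay at 0.705, Mmp9 at 1.51 and the median tested gene at 3.2. Asprv1, an aspartic protease, had 9.82 and 9.47 FPKM in Ctrl and 0.39 and 0.56 with Nar. Fos, a subunit of the AP-1 transcription factor, had 14.85 and 13.27 FPKM in Ctrl and 0.64 and 0.88 with Nar. With 4 libraries, closeness mainly reflects a fall of the same size.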

How the data were processed

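RNA-seq of blood from 2 Ctrl and 2 Nar libraries was used. Per the study's methods, bowtie-2 placed the filtered reads on reference genes. The submitters' processing notes name GRCm38, TopHat2 and Cufflinks. Each gene has an FPKM from the authors, given to 2 decimals in the deposited table. DEGseq, which the study used, needs read numbers and was not run.

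Genes averaging 0.5 FPKM or more entered the test, on log2(FPKM + 0.1), made by limma 3.58.1 under R 4.3.3 (lmFit, eBayes with trend, Benjamini-Hochberg adjustment over all 5339 genes). The steps were tested on simulated data. Members and gene lists (granule compartments, inhibitors, trafficking, granulocyte factors, blood cell markers) were chosen with earlier results of these data known. Named list genes were the 2 with the highest mean FPKM.

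Depth was estimated from steps in low FPKM values of genes with 1 transcript in GENCODE M21. A step corresponded to 1 fragment, lengths used by the authors may differ, and fragment numbers are approximate. Fragments are not independent molecules, so limits cover counting error only.

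Positions and promoters came from RefSeq tables of GRCm38.p6. The alternatives tried included pseudocounts of 1 and 0.01, dropping the filter, raising it to 5 FPKM, TPM, removal of haemoglobin genes, median-of-ratios scaling, scaling on 7 neutrophil genes, no trend, the replicate block and each library left out. Plots were drawn with matplotlib 3.10.9.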

Additional observations from a re-analysis of the deposited data

How the results depend on the processing

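The 6 tested granule genes were called lower in limma with a pseudocount of 1 or 0.01, a filter of 5 FPKM, TPM, haemoglobin genes removed, no trend and the replicate block. In these settings, in that order, 34.2%, 38.4%, 10.7%, 42.2%, 3.02%, 33.5% and 33.8% of all tested genes were called lower. Where results changed, the cause was not tested unless the setting's construction gives it. Without the filter limma called 0 of 10 granule genes (8 at an unadjusted p under 0.05) and 0 of 16382 genes (4978 at an unadjusted p under 0.05). With a filter of 5 FPKM, 1083 genes entered and 117 were called. Median-of-ratios scaling left 3 of 6 granule genes (Ltf, Camp and Ngp) and 25 of all genes, against 2123 on the deposited scale, and medians of -0.64 (primary), -3.25 (secondary) and -2.37 (tertiary). Haemoglobin removal gave 172 calls and medians of -2.73, -3.86 and -2.89. There the remaining genes were scaled up to the full total before the pseudocount of 0.1 was added. The pseudocount thus weighed less, above all in the primary genes, so their median is not comparable with that on the deposited scale. Scaling on neutrophil genes gave 0 of 6 granule genes and 4771 calls, 5 of 10 granule genes with both Nar libraries lower, and medians of 0.13, -0.97 and -0.03, and it turned the direction of Mpo (0.63), Elane (0.15), Ctsg (0.11) and Mmp9 (0.56). A pseudocount of 1 gave medians of -0.18, -3.32 and -3.02, and 0.01 gave -2.66 (primary) and -4.47 (secondary). TPM gave -4.18 for the secondary genes.

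With the replicate block limma called 6 of 6 granule genes and 1815 of all genes. Deviations of same-numbered libraries were weakly negatively correlated (r = -0.153 across genes), and the crossed block, chosen after seeing the data, gave 6 and 3233. With the crossed block limma also called 5 platelet markers, against 0 in the main fit, and 60.1% of all tested genes lower. Leaving out each library in turn, granule genes called ran from 0 to 5, all genes called from 0 to 259, and the medians from -1.45 to -0.65 for primary and -4.35 to -3.96 for secondary genes.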

Other observations

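Cell types that are rare in blood gave few values. The 5 eosinophil markers summed to 0.25 to 0.38 FPKM in Ctrl and 0.11 to 0.15 FPKM with Nar, and 0 of them reached a mean of 0.5 FPKM. The 5 basophil markers summed to 3.33 and 0.43 FPKM in Ctrl 1 and 3 against 0.32 and 2.16 FPKM in Nar 1 and 3, so the groups overlapped. The 5 proliferation genes summed to 1.79 and 3.99 FPKM in Ctrl and 1.69 and 1.24 FPKM with Nar, and 0 of the 2 tested were called by limma, 0 of them at an unadjusted p under 0.05.

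Cebpe, a C/EBP factor needed for secondary granules, had 0.25 and 0.18 FPKM in Ctrl and was listed at 0 in both Nar libraries. It was below the limit for the test. Cebpb and Cebpd, related factors, were called lower on the deposited scale, as were 39.6% of all tested genes. Their log2 fold changes were -2.85 and -2.95 (limma adjusted p = 0.00582 and 0.00488). With median-of-ratios scaling limma called 0 of the 6 tested granulocyte factors, and 0.356% of all tested genes lower. The 3 C/EBP genes were singled out after their values were seen.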
